A study of Mus musculus with 32 samples.

Results

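The livers described here came from 8 male wild-type C57BL/6 mice kept on a steady schedule and taken at 30 weeks of age. They were chosen because their array titles name the steady schedule, the wild type and that age, and are 8 of the 32 arrays of the series. Every mouse was housed alone in 12 h of light and 12 h of dark. Its liver was taken at zeitgeber time (ZT, hours after the lights came on) 2, 10 or 18. ZT2 and ZT10 fall in the light and ZT18 in the dark. There were 2 mice at ZT2, 3 at ZT10 and 3 at ZT18, with 1 mouse per array. The 8 mice of 12 weeks on the same schedule, also 2, 3 and 3, serve as the comparison by age, and the 16 arrays of jet-lagged mice entered only the estimate of the spread. Total RNA of snap-frozen liver was hybridised to 1-colour Agilent arrays. The question is how the liver transcriptome of adult mice on a regular light cycle differs between early day, late day and night.

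Daily rhythms in liver rest on a feedback loop of transcription. The activators BMAL1 (from the gene Arntl) and CLOCK bind E-box sequences and switch on the genes of their own repressors, the PER and CRY proteins, and of the REV-ERB nuclear receptors. These in turn repress Arntl through a response element shared with the ROR activators. The loop also drives PAR bZIP factors such as DBP. Through them and through feeding, fasting and body temperature it is coupled to lipid, bile acid, glucose and drug metabolism in hepatocytes.

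The label of liver was borne out by hepatocyte markers. All 11 measured hepatocyte markers, among them Alb, Apoa1, Ahsg and Ttr, were well above background on all 8 arrays, with a mean log2 level of 9.60 to 10.02 per mouse. Of these 11, 0 were called by time, against 11.2% of all genes tested. Genes of other tissues were present at levels that differed between mice. The mean log2 level of 33 skeletal muscle markers was -3.86 and -0.51 at ZT2, -3.47, -1.69 and -3.39 at ZT10, and 1.06, 0.02 and 1.46 at ZT18. The 3 ZT18 livers thus stood above all others. Of the 33 markers, 24 were higher at ZT18 than at ZT10 (between 1 and 24 with 1 mouse left out), against 3.99% of all genes. Actn2, a structural protein of the sarcomere, was well above background in the 3 ZT18 livers and in none of the other 5 (range 1.57 with normexp background correction). Of the 33 markers, 32 or 33 were above background in the ZT18 livers, 12, 26 and 16 in ZT10 mice 1, 2 and 3, and 12 and 30 in ZT2 mice 1 and 2. The mean of 14 pancreatic acinar markers was 2.39 in ZT10 mouse 2 and between -3.02 and -0.62 in the other 7 livers (0 of 14 called, against 11.2% of all genes). Adipocyte markers ran from -2.29 in ZT2 mouse 1 to 0.92 in ZT10 mouse 2. Because these lists move with single mice or with ZT18, counts that differ by over 1.5 times and named calls that are lost are also given from a fit with the muscle and acinar levels of each mouse as covariates. Separate peaks and troughs were not counted in that fit. In these 8 livers the muscle level and ZT18 go together, so that fit cannot tell them apart well. A ZT18 call lost there does not separate muscle from time of day. The part of the muscle and acinar genes in the results was not tested beyond that. Markers of erythroid cells (4.94 to 5.58), Kupffer cells (2.97 to 3.64) and endothelium (2.05 to 2.25) spanned under 1 log2 unit over the 8 livers. MHC class II markers (1.34 to 2.52) and neutrophil markers (-1.12 to 0.27) spanned more. Of 6 B cell markers, 2 were lower at ZT18 than at ZT10 (6.19% of all genes), and 0 with the covariates or without ZT10 mouse 2 or ZT18 mouse 1. In bulk tissue, fewer cells of a type and less RNA per cell cannot be told apart.

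**Figure D1:**
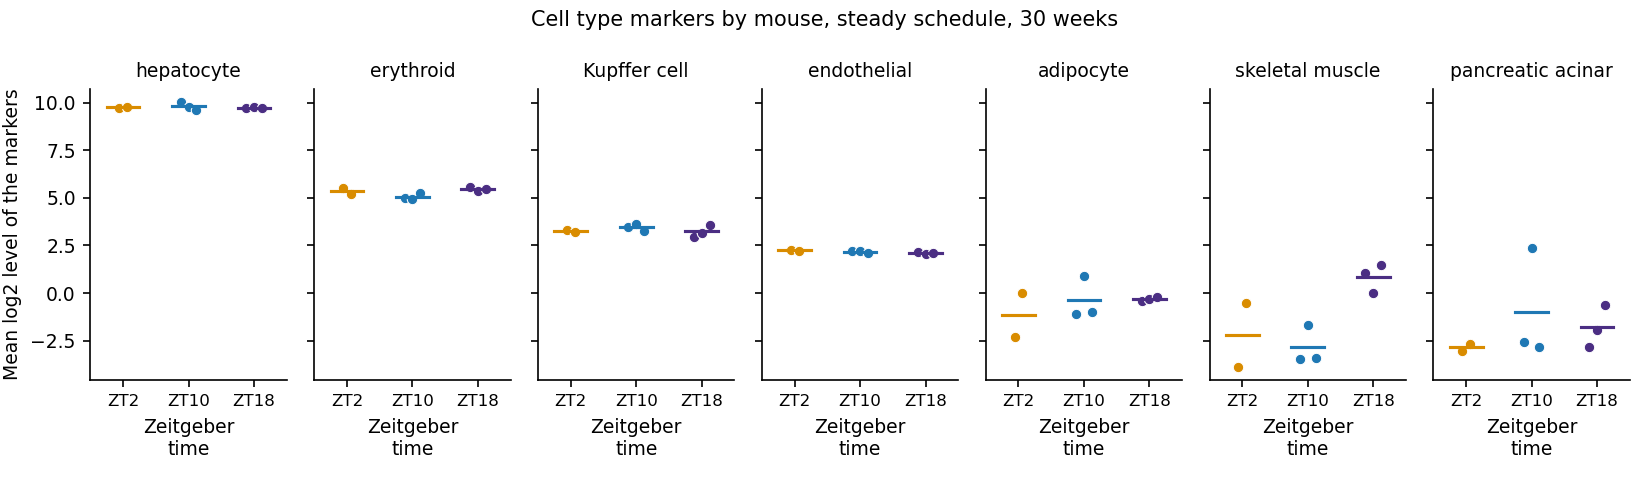
Mean log2 level of 7 lists of cell type markers in each of the 8 livers, ordered by time (ZT2, ZT10, ZT18), with the lists along the panels. Hepatocyte markers lie between 9.60 and 10.02 in all livers, skeletal muscle markers are higher in the 3 ZT18 livers (0.02 to 1.46) than in the other 5, and acinar markers stand out in ZT10 mouse 2 (2.39).

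Levels are log2 of the scanner's processed signal minus the 75th percentile of the same array, so that 0 is the level of a probe at that percentile and a difference of 1 is a 2-fold change. A level compares 1 gene between mice, not genes with each other. Differences between times are given with their standard error (SE) from limma, and a call is a Benjamini-Hochberg adjusted p under 0.05 over all 23109 genes tested, of which 14082 carry a symbol. Of the 55681 probes, 25471 to 29870 were well above background on these arrays. The range of a gene is its highest minus its lowest mean over the 3 times. Ranges, differences and the time of the highest mean come from the fit, which weighs arrays of the same slide. They can depart from those of the printed means, and for some genes, such as Rora and Alas1, not by little. With normexp background correction and its added offset, which by construction draws low signals together, the range in fold was over 1.5 times smaller for 53 of 237 genes taken by the naming rule or the marker lists. Such ranges are given beside the genes. Each of the 8 arrays lay on a different slide, so no comparison within a slide was possible, and the slide entered the fit as a random block over all 32 arrays.

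Of the 23109 genes, 2590 (11.2%) differed between the 3 times. The largest class was highest late in the day. The mean was highest at ZT10 for 1315 genes (5.69%), at ZT2 for 736 (3.18%) and at ZT18 for 539 (2.33%), and it was lowest at ZT2 for 675, at ZT10 for 928 and at ZT18 for 987. Most changes were modest. The median range of the called genes was 0.71 log2 units, against 0.31 over all genes tested, and 710 of the 2590 reached 2-fold, 178 reached 4-fold and 53 reached 8-fold. A stricter count asks that the highest time be called against each of the other 2 times. It left 494 genes with a separate peak at ZT10, 48 at ZT2 and 41 at ZT18, and 456 genes with a separate trough at ZT10, 84 at ZT2 and 70 at ZT18. ZT10 was therefore the time that most often stood apart in either direction. With 2 mice at ZT2, comparisons with that time are less precise than that between ZT18 and ZT10. The fit with muscle and acinar covariates called 1628 of the 23109 genes, 1537 of them among the 2590. Counts of varying list members with the covariates are to be read against that share. Those 1537 divide into 464 with a ZT2 maximum, 810 with a ZT10 maximum and 263 with a ZT18 maximum.

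**Figure D2:**
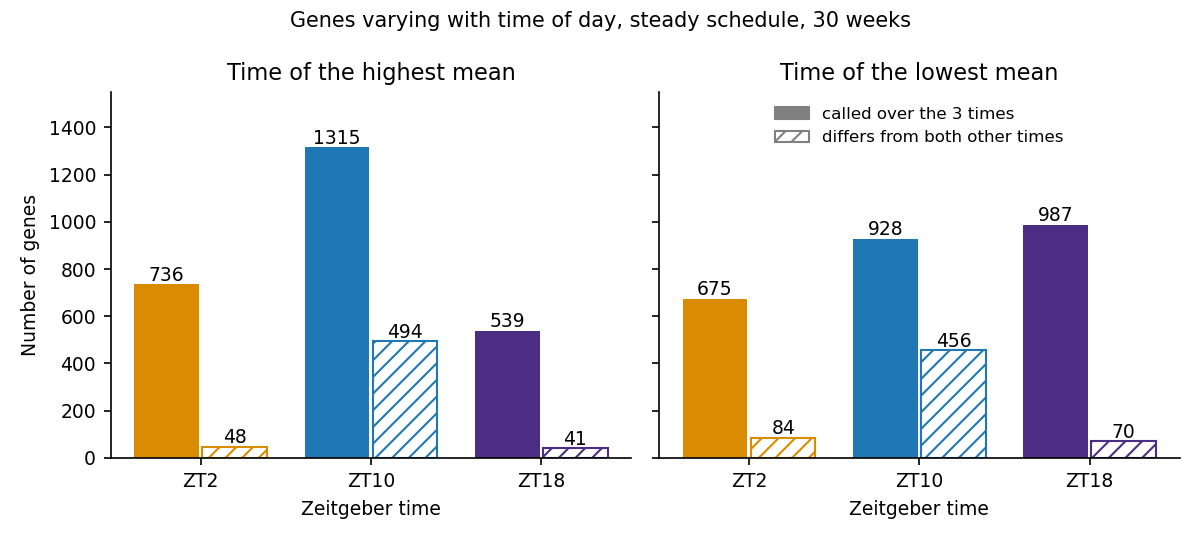
Number of genes by the time of their highest (peaks) and lowest (troughs) mean. Filled bars count all genes called over the 3 times (peaks 736, 1315 and 539 at ZT2, ZT10 and ZT18) and hatched bars those that also differ from both other times (48, 494 and 41), with ZT10 the tallest for peaks in both counts.

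Ranges of core clock genes reached 6.95 log2 units (Ciart). Muscle markers reached similar ranges, with 6.63 for Tnnc2 (adjusted p = 0.0417). That call was lost with the covariates (adjusted p = 0.806). Tnnc2 is itself part of the muscle level used as a covariate, so that fit cannot judge its call. Stretches of clock gene promoters are shown because the members differ in which of the loop's elements they carry. The windows run from 250 bases before to 50 after the gene start, or are cut to 120 bases around the match, and come from RefSeq (GRCm38.p6), 5′ to 3′ on the gene's strand, with matches in capitals. Ciart (chr3:95882179-95882478, minus strand), Per1 (chr11:69098726-69098845, plus strand), Cry1 (chr10:85185052-85185171, minus strand) and Tef (chr15:81802489-81802608, plus strand) hold the E-box CACGTG. Arntl (chr7:113207261-113207560, plus strand) and Nfil3 (chr13:52980990-52981109, minus strand) hold TAGGTCA, the core of the element that REV-ERB and ROR receptors share.
Ciart: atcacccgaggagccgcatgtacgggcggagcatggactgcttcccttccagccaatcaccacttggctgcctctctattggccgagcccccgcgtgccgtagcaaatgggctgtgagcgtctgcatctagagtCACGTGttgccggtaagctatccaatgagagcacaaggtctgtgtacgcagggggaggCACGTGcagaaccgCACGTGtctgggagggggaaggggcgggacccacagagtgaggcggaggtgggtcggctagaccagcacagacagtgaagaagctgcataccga
Per1: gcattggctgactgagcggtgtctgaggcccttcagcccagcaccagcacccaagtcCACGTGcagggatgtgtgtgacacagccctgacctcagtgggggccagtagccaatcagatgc
Cry1: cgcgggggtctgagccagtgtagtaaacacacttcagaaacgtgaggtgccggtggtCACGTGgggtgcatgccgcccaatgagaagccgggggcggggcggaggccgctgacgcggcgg
Tef: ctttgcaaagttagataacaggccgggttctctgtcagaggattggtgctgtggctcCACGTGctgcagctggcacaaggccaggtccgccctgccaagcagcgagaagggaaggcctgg
Arntl: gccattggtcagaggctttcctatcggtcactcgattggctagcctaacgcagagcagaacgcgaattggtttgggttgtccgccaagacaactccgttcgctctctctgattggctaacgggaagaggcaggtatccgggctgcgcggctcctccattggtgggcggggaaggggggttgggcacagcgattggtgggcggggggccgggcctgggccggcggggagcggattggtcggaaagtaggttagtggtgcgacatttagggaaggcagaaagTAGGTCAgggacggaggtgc
Nfil3: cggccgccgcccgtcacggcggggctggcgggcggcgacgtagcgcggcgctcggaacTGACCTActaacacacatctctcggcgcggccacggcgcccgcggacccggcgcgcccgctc
The window of Ciart holds 3 E-boxes, the most distal of which starts at -116. Arntl and Per1 each have 2 windows, and for both genes the window not shown lacks the match. Both strands were searched. CACGTG occurs in 7.15% of all 32851 windows in the table and in 4 of the 8 clock repressors with a window (Bhlhe41, Ciart, Cry1 and Per1). TAGGTCA occurs in 2.61% of windows and the D-box TTATGTAA in 0.938%, among them that of Per3. Of the 11228 tested genes with a window, 1234 hold CACGTG. Of genes with a separate peak, 49 of 303 at ZT10 (16.2%) hold it, 4 of 29 at ZT2 (13.8%) and 1 of 22 at ZT18 (4.55%). Of genes with a separate trough, 39 of 306 at ZT10 (12.7%) hold it, 13 of 51 at ZT2 (25.5%) and 9 of 55 at ZT18 (16.4%). These matches describe the letters only, and no binding was measured.

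Among activators of the loop, Arntl, Clock and Npas2 varied by time, and Arntl and Clock had their lowest mean at ZT10. Arntl was 2.03 and 2.10 at ZT2, -4.89, -3.16 and -4.45 at ZT10, and 1.74, 1.61 and 1.54 at ZT18. All ZT10 livers lay over 4 log2 units below all others. The difference between ZT18 and ZT10 was 5.59 ± 0.52 (SE, adjusted p = 6.37e-07) and that between ZT10 and ZT2 was -6.10 ± 0.58 (SE, adjusted p = 6.88e-07), a range of 68.4-fold. Only 1 of the 3 ZT10 arrays measured the probe well above background. Clock, which encodes the partner of BMAL1, was 0.98 and 0.83 at ZT2, -0.84, -0.76 and -0.52 at ZT10, and 0.80, 0.83 and 0.94 at ZT18. All ZT10 livers lay below all others, with ZT18 higher than ZT10 by 1.59 ± 0.19 (SE, adjusted p = 9.04e-06). Npas2, a paralogue of Clock, was well above background in both ZT2 mice and in none at ZT10 or ZT18, so that its ZT2 level was at least 1.2-fold higher (range 2.49, adjusted p = 0.00273). With normexp the range of Arntl was 3.36 (10.3-fold) and still called, and that of Npas2 was 0.28 and was not (adjusted p = 0.316). Rora, an activating receptor at the element of Arntl, averaged 2.19 ± 0.08 at ZT2, 1.70 ± 0.40 at ZT10 and 1.92 ± 0.09 at ZT18 (SD) and did not pass (range 0.28, adjusted p = 0.7).

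All 10 measured repressors varied, against 11.2% of all genes, and 8 of the 10 had their highest mean at ZT10. Ciart, a repressor of the BMAL1 and CLOCK complex, was -5.49 and -6.01 at ZT2, 1.44, 1.39 and 0.91 at ZT10, and -3.88, -4.13 and -2.82 at ZT18. Neither ZT2 array measured it well above background and all 3 ZT10 arrays did, so that its peak was at least 39.4-fold (range 6.95, adjusted p = 6.47e-08). Per1 was -0.30 and -0.56 at ZT2, 4.12, 3.79 and 3.84 at ZT10, and 2.30, 1.86 and 2.35 at ZT18, with the 3 times in separate bands, ZT10 on top and ZT2 at the bottom (range 4.26, adjusted p = 2.19e-06). Per3 showed the same order at -5.07 and -6.01 at ZT2, -0.67, -1.09 and -0.97 at ZT10, and -2.96, -2.47 and -2.01 at ZT18 (range 4.58, adjusted p = 4.13e-07), at least 8.82-fold since neither ZT2 array measured it above background. For Per1 and Per3 the step between ZT18 and ZT10, -1.54 ± 0.37 (SE, adjusted p = 0.00899) and -1.41 ± 0.35 (SE, adjusted p = 0.012), did not pass with the tissue covariates (adjusted p = 0.109 and 0.172). It was also lost without ZT18 mouse 2 for Per1 (-1.31, adjusted p = 0.06) and without ZT18 mouse 1 (-1.15, adjusted p = 0.0773) or ZT10 mouse 1 (-1.30, adjusted p = 0.0567) for Per3. Per2 stayed high into the night at -2.46 and -2.41 at ZT2, -0.98, -1.03 and -0.08 at ZT10, and -0.71, -0.47 and -0.46 at ZT18. Its ZT10 and ZT18 levels overlapped, and both lay above ZT2 (1.74 ± 0.34 (SE, adjusted p = 0.00204) for ZT10 minus ZT2 and 1.81 ± 0.34 (SE, adjusted p = 0.00674) for ZT18 minus ZT2). The second of these was lost without ZT2 mouse 1 or 2 (differences of 1.78 to 1.84, adjusted p = 0.0713 to 0.109). With normexp the range was 2.92 for Ciart (7.59-fold), 1.41 for Per3 and 1.06 for Per2, all 3 still called.

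The nuclear receptor Nr1d1 (REV-ERB alpha) was 1.16 and -0.04 at ZT2, 1.88, 1.10 and 0.10 at ZT10, and -3.26, -4.81 and -6.11 at ZT18. It was high at both light-phase times and 58.9-fold lower at ZT18 than at ZT10 (-5.88 ± 0.57 (SE, adjusted p = 1.11e-06)), with only 1 of 3 ZT18 arrays above background. ZT10 and ZT2 overlapped (0.19 ± 0.63 (SE, adjusted p = 0.945)). Its paralogue Nr1d2 peaked at ZT10 alone, at -0.02 and -0.52 at ZT2, 2.01, 1.82 and 1.20 at ZT10, and -0.76, -0.70 and -0.42 at ZT18 (-2.28 ± 0.24 (SE, adjusted p = 3.87e-06) for ZT18 minus ZT10). Cry1 was the exception among the repressors, lowest at ZT10 and highest at night. Its levels were -1.94 and -1.55 at ZT2, -4.55, -3.83 and -2.34 at ZT10, and -0.23, -0.46 and -0.54 at ZT18, so that every ZT18 liver was above every other, with 2.97 ± 0.35 (SE, adjusted p = 9.46e-06) for ZT18 minus ZT10. The ZT10 minus ZT2 step of Cry1 (-1.69 ± 0.39 (SE, adjusted p = 0.00803)) was lost without ZT2 mouse 2 (-1.48, adjusted p = 0.14). Cry2 moved little and in the other sense, averaging 3.39 ± 0.01 at ZT2, 4.21 ± 0.29 at ZT10 and 4.01 ± 0.18 at ZT18 (SD, range 0.83, adjusted p = 0.00012). The E-box repressors Bhlhe40 and Bhlhe41 (DEC1 and DEC2) were both higher at ZT10 than at ZT2. Bhlhe40 averaged 0.86 ± 0.28 at ZT2, 2.95 ± 0.60 at ZT10 and 2.23 ± 0.17 at ZT18 (SD, range 1.96, adjusted p = 0.000346). Bhlhe41, above background at ZT10 alone, was at least 3.53-fold higher there (range 2.55, adjusted p = 0.000178). With normexp the range was 2.87 for Nr1d1 (7.3-fold), 1.23 for Cry1 and 0.49 for Bhlhe41, all 3 still called.

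The PAR bZIP activators, which bind D-boxes, all peaked at ZT10. Dbp was 1.14 and 0.35 at ZT2, 7.47, 7.09 and 6.76 at ZT10, and 2.02, 2.46 and 2.72 at ZT18, a range of 74.9-fold (range 6.23, adjusted p = 6.47e-08) with no overlap between any 2 times. Tef was 4.46 and 4.08 at ZT2, 7.36, 7.14 and 7.01 at ZT10, and 5.66, 5.67 and 6.03 at ZT18, also in separate bands (range 2.86, adjusted p = 1.6e-07). Hlf had a smaller range, 2.12 ± 0.02 at ZT2, 3.13 ± 0.28 at ZT10 and 2.59 ± 0.13 at ZT18 (SD, range 1.03, adjusted p = 0.000255). Its ZT18 minus ZT10 step (-0.50 ± 0.14 (SE, adjusted p = 0.0202)) was lost without ZT10 mouse 3 (-0.34, adjusted p = 0.128) or ZT18 mouse 2 (-0.44, adjusted p = 0.0971) and had an adjusted p of 0.0513 with the covariates. Nfil3, the repressor at the same D-boxes, ran opposite to them. It was 4.71 and 5.12 at ZT2, 2.00, 2.10 and 1.79 at ZT10, and 4.25, 3.98 and 4.27 at ZT18, and all ZT10 livers lay over 1 log2 unit below all others (2.17 ± 0.27 (SE, adjusted p = 1.61e-05) for ZT18 minus ZT10). Of 8 kinases and ubiquitin ligases that act on clock proteins, 1 was called, Btrc (range 0.50), against 11.2% of all genes. The call of Btrc was lost in some fits with 1 mouse left out (0 or 1 of the 8 called) and with normexp (adjusted p = 0.139).

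**Figure D3:**
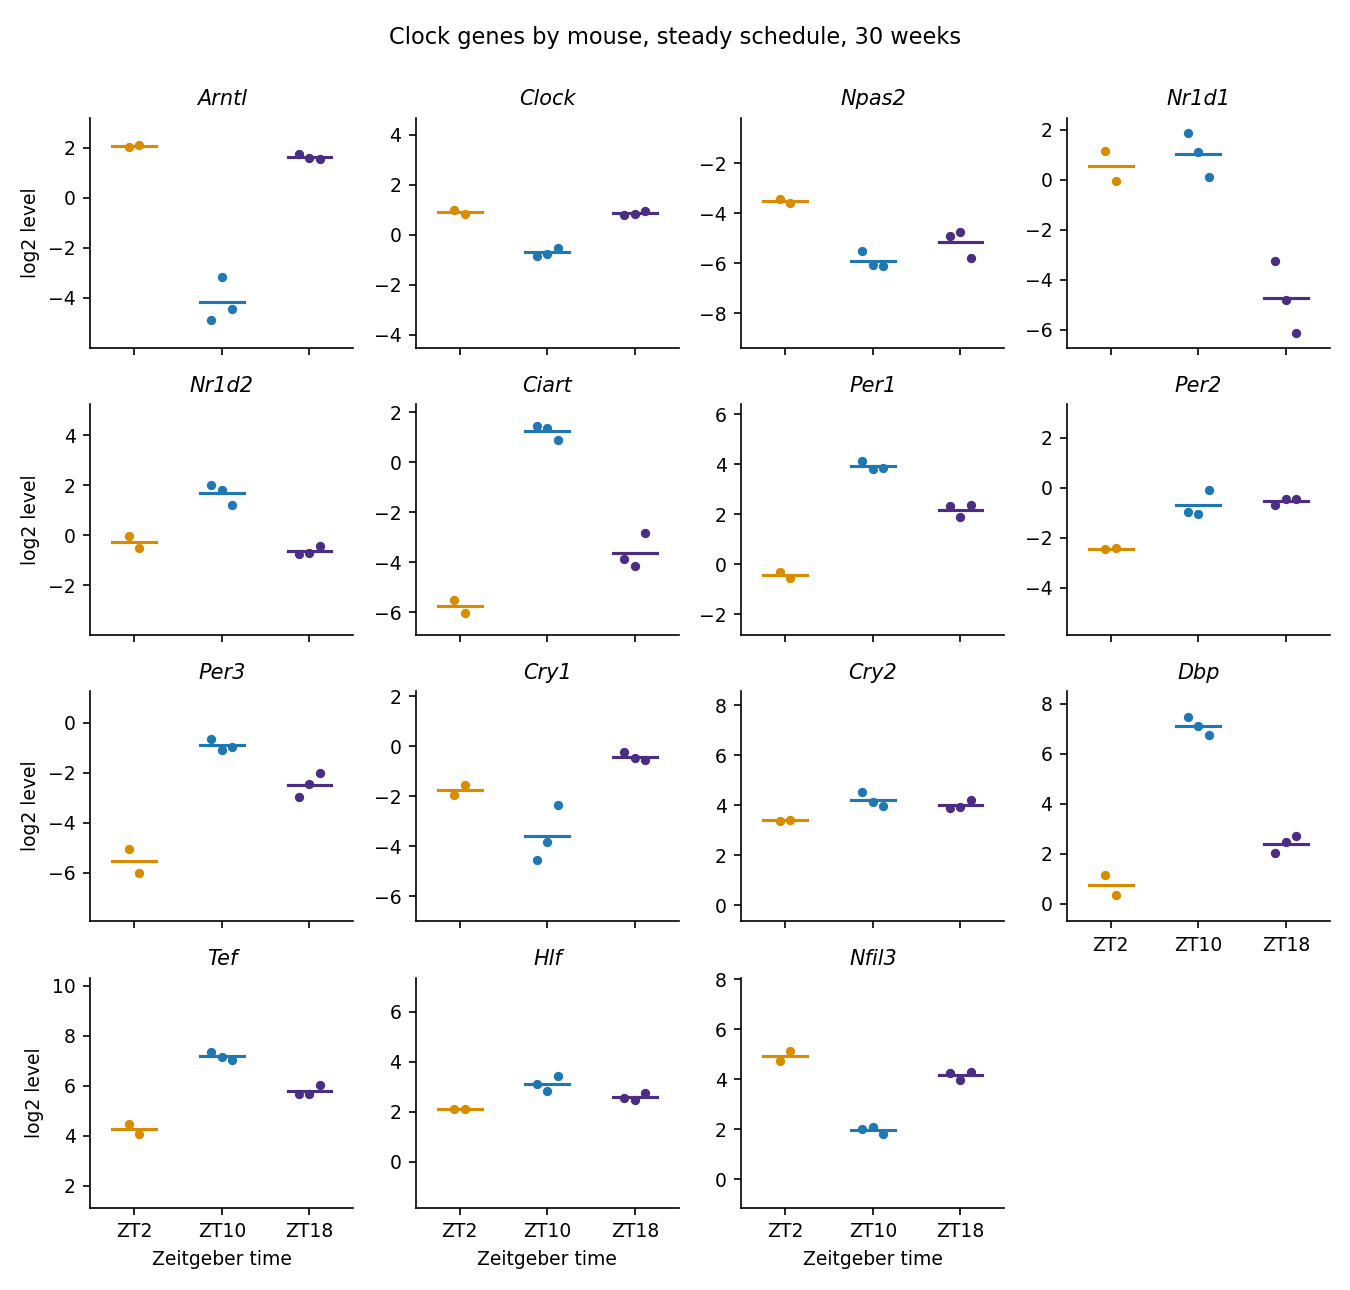
Log2 levels of 15 clock genes in the 8 livers by time. Dots are mice and bars are means, and each panel spans the same number of log2 units, so that Arntl, Clock and Nfil3 are seen to dip at ZT10 while Ciart, Dbp, Tef, Per1 and Per3 peak there, and Nr1d1 drops at ZT18.

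Known clock output genes of liver followed. Of 19 measured, 17 varied (15 to 18 with 1 mouse left out, against 11.2% of all genes), 12 of them highest at ZT10, with 11 higher and 3 lower at ZT10 than at ZT2. Usp2, a ubiquitin-specific protease, was -1.64 and -1.26 at ZT2, 4.58, 4.38 and 4.53 at ZT10, and 2.46, 2.53 and 2.74 at ZT18, which put the 3 times in separate bands (range 5.83, adjusted p = 6.47e-08). Its step between ZT18 and ZT10, -1.70 ± 0.38 (SE, adjusted p = 0.00513), gave an adjusted p of 0.0576 with the covariates. Rgs16, which shortens signalling of G protein-coupled receptors, was 1.68 and -0.20 at ZT2, 5.49, 5.17 and 4.35 at ZT10, and -1.04, -1.11 and -1.03 at ZT18. The 3 ZT10 livers were 46.6-fold above the ZT18 livers (-5.54 ± 0.97 (SE, adjusted p = 0.000532) for ZT18 minus ZT10), while the ZT2 mice differed from each other by more than 1 log2 unit. Wee1, a kinase that restrains entry into mitosis, was -1.85 and -1.75 at ZT2, 1.54, 1.53 and 1.66 at ZT10, and 0.12, 0.25 and 0.23 at ZT18 (range 3.24, adjusted p = 5.58e-06). Upp2, a uridine phosphorylase, averaged 0.95 ± 0.48 at ZT2, 4.23 ± 0.49 at ZT10 and 2.72 ± 0.05 at ZT18 (SD, range 3.24, adjusted p = 9.13e-05). Noct, the circadian phosphatase nocturnin, averaged 0.66 ± 0.10 at ZT2, 3.68 ± 0.77 at ZT10 and 2.65 ± 0.13 at ZT18 (SD, range 3.11, adjusted p = 0.000173). All 3 were lowest at ZT2. The normexp range was 5.01 for Usp2, 4.81 for Rgs16 and 2.30 for Wee1. Por, the reductase that passes electrons to cytochrome P450 enzymes, stayed high after ZT10 at 4.90 and 5.06 at ZT2, 6.99, 7.24 and 7.25 at ZT10, and 6.58, 6.51 and 6.77 at ZT18 (2.06 ± 0.24 (SE, adjusted p = 1.27e-05) for ZT10 minus ZT2, 1.68 ± 0.24 (SE, adjusted p = 0.000494) for ZT18 minus ZT2).

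Other genes of largest range with a peak at ZT10, by the naming rule, were Lipg and Nrg4. Lipg, a lipase acting on phospholipids of lipoproteins, was measured above background in the ZT10 livers alone and was at least 2.57-fold higher at ZT10 than at ZT2 (range 3.62, adjusted p = 8.11e-06). Nrg4, a growth factor ligand, was -0.89 and -0.79 at ZT2, 2.76, 2.09 and 2.81 at ZT10, and 0.33, 0.05 and 0.31 at ZT18 (range 3.32, adjusted p = 5.35e-06), so that ZT10 did not overlap another time. The normexp range was 0.71 for Lipg and 2.70 for Nrg4.

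Between ZT18 and ZT10 alone, further genes were lower at night. Ccne1, which encodes cyclin E1, was -1.45 and -1.48 at ZT2, 1.90, 1.10 and 0.81 at ZT10, and -1.37, -1.31 and -1.09 at ZT18, and all ZT10 livers lay over 1 log2 unit above all others (-2.54 ± 0.28 (SE, adjusted p = 6.02e-06) for ZT18 minus ZT10). Gpcpd1, an enzyme of glycerophosphocholine breakdown, was 1.35 and 1.23 at ZT2, 3.91, 4.19 and 3.13 at ZT10, and 0.59, 0.71 and 0.95 at ZT18 (-2.77 ± 0.39 (SE, adjusted p = 6.24e-05)). Gnat1, a transducin subunit known from rod photoreceptors, averaged -0.90 ± 0.12 at ZT2, 1.27 ± 0.38 at ZT10 and -1.43 ± 0.16 at ZT18 (SD, -2.53 ± 0.27 (SE, adjusted p = 4.89e-06)). Cyp2g1, a cytochrome P450 known from olfactory mucosa, averaged -2.70 ± 0.18 at ZT2, 0.01 ± 0.72 at ZT10 and -2.66 ± 0.46 at ZT18 (SD, -2.59 ± 0.45 (SE, adjusted p = 0.000537)). Tesmin, a metallothionein-like protein known from testis, averaged -3.60 ± 0.66 at ZT2, -1.34 ± 0.29 at ZT10 and -4.14 ± 0.71 at ZT18 (SD, -2.79 ± 0.35 (SE, adjusted p = 1.91e-05)), with 1 of 3 ZT18 arrays above background. All 5 had a separate peak at ZT10, and for Cyp2g1 its ZT10 minus ZT2 step (2.46 ± 0.50 (SE, adjusted p = 0.00306)) was lost without ZT2 mouse 2 (2.22, adjusted p = 0.0737). The normexp range was 1.999 for Ccne1, 1.84 for Gnat1, 1.45 for Cyp2g1 and 0.92 for Tesmin.

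Genes highest at ZT2 included several that fasting, insulin or acute stimuli are known to control. Igfbp1, an insulin-repressed binding protein for insulin-like growth factors, was 6.76 and 7.18 at ZT2, 3.56, 3.60 and 2.03 at ZT10, and 4.03, 2.43 and 4.53 at ZT18. Both ZT2 livers lay over 2 log2 units above the other 6 (-4.19 ± 0.64 (SE, adjusted p = 0.000198) for ZT10 minus ZT2), while ZT18 and ZT10 overlapped (0.67 ± 0.58 (SE, adjusted p = 0.58)). Depp1, a target of FOXO factors, was 5.12 and 4.85 at ZT2, 2.23, 2.35 and 1.51 at ZT10, and 2.47, 2.96 and 3.89 at ZT18 (-3.31 ± 0.68 (SE, adjusted p = 0.00314) for ZT10 minus ZT2), and that call was lost without ZT2 mouse 1 (-3.01, adjusted p = 0.0609). Egr1, an immediate early transcription factor, was 2.15 and 4.41 at ZT2, 0.34, 0.86 and -1.27 at ZT10, and -1.04, -0.78 and 0.64 at ZT18. Its ZT2 mice differed by over 2 log2 units from each other, and the call over the 3 times (range 3.51, adjusted p = 0.0156) was lost without ZT2 mouse 2 (2.40, adjusted p = 0.341). Ndrg1, a stress-responsive gene, was 3.46 and 2.92 at ZT2, 2.18, 1.78 and 1.56 at ZT10, and 1.54, 1.71 and 1.58 at ZT18, with both ZT2 mice on top (-1.59 ± 0.21 (SE, adjusted p = 0.0002) for ZT18 minus ZT2 and -1.34 ± 0.21 (SE, adjusted p = 0.000283) for ZT10 minus ZT2).

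Other genes with a ZT2 maximum had their lowest mean at ZT10, and some were also lower at ZT18 than at ZT2. Pdk4, the kinase that switches off pyruvate dehydrogenase, was 2.25 and 2.02 at ZT2, -1.30, -1.29 and -0.28 at ZT10, and 1.62, 1.93 and 1.73 at ZT18. ZT2 and ZT18 lay within 1 log2 unit of each other and ZT10 far below (2.68 ± 0.38 (SE, adjusted p = 6.8e-05) for ZT18 minus ZT10). Tubb2a, a beta tubulin, was 7.22 and 7.49 at ZT2, 4.83, 4.08 and 4.66 at ZT10, and 6.95, 6.60 and 6.70 at ZT18 (-2.79 ± 0.42 (SE, adjusted p = 0.000164) for ZT10 minus ZT2). Chka, choline kinase alpha, was 3.10 and 3.21 at ZT2, 0.72, 0.06 and -0.09 at ZT10, and 2.13, 1.91 and 1.82 at ZT18, with the 3 times in separate bands (range 2.86, adjusted p = 3.83e-06). Its ZT18 minus ZT2 step, -1.20 ± 0.30 (SE, adjusted p = 0.0466), was lost without ZT2 mouse 1 or 2, or ZT10 mouse 2, or ZT18 mouse 1, 2 or 3 (differences of -1.28 to -1.10, adjusted p = 0.0539 to 0.249), and had an adjusted p of 0.128 with the covariates. Loxl4, a lysyl oxidase-like enzyme, averaged -0.59 ± 0.54 at ZT2, -4.16 ± 1.16 at ZT10 and -2.48 ± 0.11 at ZT18 (SD, range 3.60, adjusted p = 0.000171). Its ZT18 minus ZT2 step, -2.04 ± 0.51 (SE, adjusted p = 0.0482), was lost without ZT2 mouse 1 or 2, or ZT18 mouse 1, 2 or 3 (differences of -2.36 to -1.74, adjusted p = 0.0959 to 0.304), and had an adjusted p of 0.199 with the covariates. Ccnjl, a cyclin J-like protein, averaged -2.53 ± 0.37 at ZT2, -5.33 ± 0.60 at ZT10 and -4.12 ± 0.35 at ZT18 (SD). It was at least 3.02-fold higher at ZT2 than at ZT10, where no array measured it (range 2.76, adjusted p = 0.0044). Ccnjl lost this call without ZT2 mouse 1 (2.53, adjusted p = 0.052). The normexp range was 2.48 for Pdk4, 1.25 for Loxl4 and 0.50 for Ccnjl.

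Of the 10 genes named for a peak at ZT18, only Lingo4 was also called between ZT18 and ZT2, and the others had their lowest mean at ZT10. For some of these the ZT10 minus ZT2 step was lost without a single mouse, as given with the genes. Elovl3, an elongase of very long chain fatty acids, was 6.42 and 6.81 at ZT2, 3.09, 3.10 and 1.69 at ZT10, and 6.77, 6.55 and 6.56 at ZT18. The ZT18 and ZT2 levels overlapped (0.02 ± 0.59 (SE, adjusted p = 0.993)) and both stood above ZT10 (3.80 ± 0.53 (SE, adjusted p = 5.68e-05) for ZT18 minus ZT10). The same shape was seen in Lrfn3, a membrane adhesion protein, at 3.54 and 3.79 at ZT2, 0.86, 0.76 and 0.96 at ZT10, and 3.60, 3.64 and 3.63 at ZT18 (2.71 ± 0.25 (SE, adjusted p = 6.37e-07)), and in Abtb2, a BTB domain protein, at 3.24 and 3.33 at ZT2, 0.87, 0.72 and 0.76 at ZT10, and 3.28, 3.48 and 3.18 at ZT18 (2.44 ± 0.30 (SE, adjusted p = 1.45e-05)). Ddc, the decarboxylase of aromatic amino acids, averaged 5.54 ± 0.02 at ZT2, 2.94 ± 0.31 at ZT10 and 5.41 ± 0.18 at ZT18 (SD, 2.48 ± 0.29 (SE, adjusted p = 9.04e-06)). Ube2u, of the ubiquitin-conjugating enzyme family, averaged -1.56 ± 0.17 at ZT2, -4.18 ± 0.59 at ZT10 and -1.64 ± 0.51 at ZT18 (SD, 2.63 ± 0.37 (SE, adjusted p = 7.34e-05)). Acnat2, an acyl-CoA amino acid N-acyltransferase, was 1.51 and 1.83 at ZT2, -0.46, -0.11 and 0.50 at ZT10, and 2.76, 2.18 and 2.48 at ZT18, so that ZT18 lay above both other times (2.48 ± 0.38 (SE, adjusted p = 0.000169)). The ZT10 minus ZT2 step of Acnat2 (-1.57, adjusted p = 0.0249) was lost without ZT10 mouse 1 (-1.36, adjusted p = 0.1) or mouse 2 (-1.53, adjusted p = 0.0682). It was also lost without ZT2 mouse 1 (-1.79) or mouse 2 (-1.35). The printed means of Ddc and Ube2u were slightly higher at ZT2 than at ZT18, since the peak is that of the fitted means. The normexp range of Ube2u was 0.69.

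Cdkn1a, the cell cycle inhibitor p21, was 0.03 and 0.46 at ZT2, -2.27, -2.91 and -2.75 at ZT10, and 0.94, 0.07 and 0.05 at ZT18. It was 7.1-fold higher at ZT18 than at ZT10 (2.83 ± 0.53 (SE, adjusted p = 0.00099)), with an adjusted p of 0.0516 in the covariate fit. H3c15 is a histone H3 gene with near-identical copies that its probe may not tell apart, so the signal is uncertain as to gene. Its levels were 0.46 and 1.36 at ZT2, -1.73, -1.84 and -0.62 at ZT10, and 2.07, 2.54 and 2.21 at ZT18, with ZT18 on top and ZT10 lowest (3.59 ± 0.35 (SE, adjusted p = 1.11e-06)). Lingo4, a leucine-rich repeat membrane protein, was -5.22 and -4.04 at ZT2, -1.22, -2.78 and -0.81 at ZT10, and -1.74, -1.21 and -1.80 at ZT18. Neither ZT2 array measured it above background, and the ZT18 mean was at least 5.54-fold above it (2.97 ± 0.51 (SE, adjusted p = 0.00306)). Lingo4 lost this call without ZT2 mouse 1 (2.29, adjusted p = 0.153), and with normexp (0.84, adjusted p = 0.132). ZT18 and ZT10 overlapped (0.04 ± 0.46 (SE, adjusted p = 0.979)). The ZT10 minus ZT2 steps of Cdkn1a (-2.57, adjusted p = 0.00742) and H3c15 (-2.18, adjusted p = 0.00091) were lost without ZT2 mouse 2 (-2.37 and -1.69). The normexp range was 1.61 for Cdkn1a and 2.75 for H3c15.

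Called differences of chaperones of the cytosol and of the endoplasmic reticulum (ER) lay between ZT10 and another time, with ZT10 lower in all but 1 gene, Trib3. ZT18 and ZT2 were not told apart in either list. Promoters of 3 of them are shown for the elements that the heat shock and ER stress factors recognise. Hsph1 (chr5:149636266-149636565, minus strand) holds a heat shock element, searched as 3 alternating GAA and TTC units separated by any 2 bases. Creld2 (chr15:88819396-88819695, plus strand) and Hspa5 (chr2:34771974-34772093, plus strand) hold the ER stress element, CCAAT and CCACG separated by 9 bases.
Hsph1: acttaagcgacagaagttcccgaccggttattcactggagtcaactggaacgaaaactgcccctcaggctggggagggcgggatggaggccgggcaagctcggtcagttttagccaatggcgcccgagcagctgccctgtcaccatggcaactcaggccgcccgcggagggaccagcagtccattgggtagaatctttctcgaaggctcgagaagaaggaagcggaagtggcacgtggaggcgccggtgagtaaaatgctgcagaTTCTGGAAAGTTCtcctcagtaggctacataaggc
Creld2: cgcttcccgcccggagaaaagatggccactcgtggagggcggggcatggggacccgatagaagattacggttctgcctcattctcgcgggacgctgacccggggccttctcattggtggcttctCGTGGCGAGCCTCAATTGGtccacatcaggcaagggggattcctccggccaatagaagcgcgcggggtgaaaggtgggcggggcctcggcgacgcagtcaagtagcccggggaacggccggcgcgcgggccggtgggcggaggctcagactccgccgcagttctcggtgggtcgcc
Hspa5: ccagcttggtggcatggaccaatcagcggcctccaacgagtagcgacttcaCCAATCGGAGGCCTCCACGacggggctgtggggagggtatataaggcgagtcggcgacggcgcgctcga
The heat shock element was found in 0.603% of all windows and in 4 of 18 heat shock chaperones (Chordc1, Hspd1, Hspe1 and Hsph1). The ER stress element was found in 0.119% of all windows and in 9 of 27 genes of the unfolded protein response (Calr, Canx, Creld2, Derl3, Dnajc3, Hsp90b1, Hspa5, Pdia6 and Syvn1). Both strands were searched, and a match is no evidence of use.

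Of 22 heat shock chaperones, 11 varied (8 to 11 with 1 mouse left out, 6 with the covariates), 10 of them highest at ZT18. The share that varied over all genes was 11.2%. At ZT18, 13 were higher than at ZT10 (against 3.99% of all genes) and 0 lower (6.19%). The median difference of the list was 0.60, against 0.01 over all genes. Hsph1, a large chaperone of the HSP70 system, was 3.48 and 4.41 at ZT2, 1.82, 1.87 and 2.70 at ZT10, and 3.88, 3.81 and 4.29 at ZT18. Each ZT18 liver lay above each ZT10 liver (1.85 ± 0.30 (SE, adjusted p = 0.000234)), and ZT18 overlapped ZT2. Hsp90aa1, the inducible HSP90, was 4.97 and 5.77 at ZT2, 4.32, 3.85 and 4.36 at ZT10, and 5.59, 5.91 and 5.89 at ZT18 (1.62 ± 0.23 (SE, adjusted p = 5.71e-05)). Hspa4l, Stip1 and Fkbp4, which work with HSP70 and HSP90, were higher at ZT18 by 1.25 ± 0.15 (SE, adjusted p = 1.02e-05), 1.12 ± 0.16 (SE, adjusted p = 7.34e-05) and 1.01 ± 0.15 (SE, adjusted p = 0.000148). Hspb1, a small heat shock protein, was higher by 1.29 ± 0.32 (SE, adjusted p = 0.0101), a call lost without ZT18 mouse 2 (1.14, adjusted p = 0.0595) and with the covariates (adjusted p = 0.123). With the muscle and acinar covariates 6 of the 22 were called higher at ZT18 than at ZT10. Between ZT10 and ZT2, 7 were lower at ZT10, and without ZT2 mouse 2 none was. That mouse had the higher levels of the ZT2 pair, with 4.41 against 3.48 for Hsph1 in mouse 1. It also had the higher muscle level (-0.51 against -3.86).

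Of 31 genes of the unfolded protein response, 12 varied (11 to 14 with 1 mouse left out), 11 of them highest at ZT2. The share that varied over all genes was 11.2%. At ZT10, 14 were lower than at ZT2 (3.38% of all genes) and 0 higher (3.59%), with a median difference of -0.51 against 0.02 over all genes. Without ZT2 mouse 2 the count was 8, and it was 11 with the covariates. Creld2, an ER protein of secretory stress, was 5.69 and 6.95 at ZT2, 3.94, 3.79 and 4.44 at ZT10, and 5.46, 5.60 and 5.85 at ZT18. All ZT2 and ZT18 livers lay above all ZT10 livers (-2.15 ± 0.36 (SE, adjusted p = 0.000463) for ZT10 minus ZT2, 1.45 ± 0.32 (SE, adjusted p = 0.00463) for ZT18 minus ZT10). Hspa5, the ER chaperone BiP, was 7.92 and 8.40 at ZT2, 6.55, 6.33 and 7.04 at ZT10, and 7.62, 7.68 and 7.81 at ZT18 (-1.48 ± 0.20 (SE, adjusted p = 5.94e-05) for ZT10 minus ZT2). Manf, a secreted ER stress protein, averaged 4.77 ± 0.48 at ZT2, 2.74 ± 0.57 at ZT10 and 4.15 ± 0.14 at ZT18 (SD, range 1.99, adjusted p = 0.000132). Hyou1, a chaperone of the ER, averaged 0.25 ± 0.43 at ZT2, -1.30 ± 0.24 at ZT10 and -0.21 ± 0.21 at ZT18 (SD, range 1.41, adjusted p = 0.00071). Syvn1, the ubiquitin ligase of ER-associated degradation, averaged 7.04 ± 0.62 at ZT2, 5.36 ± 0.19 at ZT10 and 6.20 ± 0.29 at ZT18 (SD, range 1.63, adjusted p = 0.00067). Between ZT18 and ZT10, 9 of the 31 were higher (3.99% of all genes) and 1 lower (6.19%), and 2 and 1 were called with the covariates. In that fit Creld2, Manf and Syvn1 had adjusted p values of 0.121, 0.059 and 0.515. The lower one was Trib3, a pseudokinase of the ATF4 pathway, at 2.15 and 2.08 at ZT2, 4.04, 3.04 and 1.85 at ZT10, and 1.31, 1.35 and 1.32 at ZT18 (-1.80 ± 0.32 (SE, adjusted p = 0.000692)).

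Of the 3 cold-induced RNA-binding genes, all varied (2 or 3 with 1 mouse left out) and 2 were lower at ZT18 than at ZT10 (1 with the covariates). Of all genes tested, 11.2% varied. Cirbp, which rises when cells cool, was 2.62 and 2.18 at ZT2, 3.18, 3.14 and 2.75 at ZT10, and 1.72, 1.65 and 1.37 at ZT18, with all ZT18 livers below all others (-1.40 ± 0.22 (SE, adjusted p = 0.000173)). Srsf5, a splicing factor, averaged 3.86 ± 0.26 at ZT2, 3.85 ± 0.09 at ZT10 and 3.26 ± 0.11 at ZT18 (SD, -0.66 ± 0.13 (SE, adjusted p = 0.00125)), with an adjusted p of 0.0589 in the covariate fit. Rbm3 was set apart by ZT2 instead, at 2.86 ± 0.32 at ZT2, 3.72 ± 0.11 at ZT10 and 3.67 ± 0.10 at ZT18 (SD, range 0.87, adjusted p = 0.00108). Rbm3 lost this call without ZT2 mouse 2 (0.63, adjusted p = 0.0868). Cirbp and the heat shock chaperones thus had their night and late-day levels in opposite order.

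**Figure D4:**
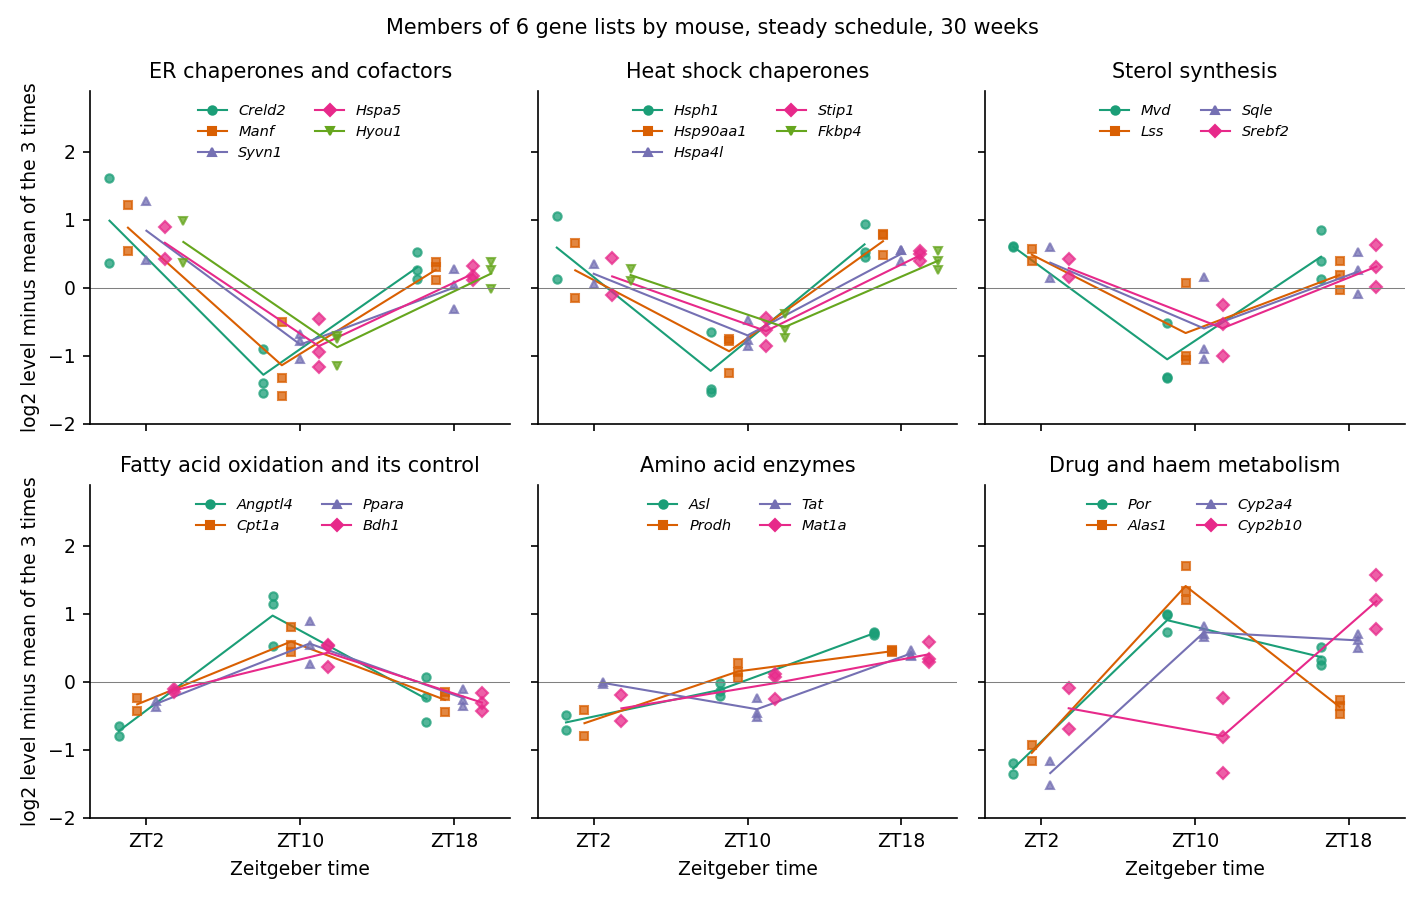
Log2 level of 26 genes of 6 processes in each liver, relative to the mean of the 3 times. The means of ER and heat shock chaperones and sterol genes lie below 0 at ZT10, those of fatty acid oxidation genes such as Cpt1a and Angptl4 above 0, and Por, Alas1 and Cyp2a4 are low at ZT2.

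Of 26 genes of cholesterol synthesis and uptake, 4 varied (1 to 9 with 1 mouse left out, 2 with the covariates), against 11.2% of all genes. At ZT18, 5 were higher than at ZT10 (3.99% of all genes) and 0 lower, and at ZT10, 4 were lower than at ZT2 (3.38%) and 0 higher. With the covariates these counts were 1 and 2. Mvd, mevalonate diphosphate decarboxylase, was 3.40 and 3.42 at ZT2, 2.28, 1.48 and 1.50 at ZT10, and 2.93, 3.66 and 3.20 at ZT18, with no overlap between ZT10 and the other times (1.67 ± 0.26 (SE, adjusted p = 0.000173) for ZT18 minus ZT10). Srebf2, the transcription factor of the pathway, averaged -0.64 ± 0.19 at ZT2, -1.52 ± 0.38 at ZT10 and -0.61 ± 0.31 at ZT18 (SD, 0.95 ± 0.21 (SE, adjusted p = 0.00452) for ZT18 minus ZT10). That step had an adjusted p of 0.075 with the covariates, and the call over the 3 times was lost without ZT10 mouse 2 (0.73, adjusted p = 0.0796). Sqle, squalene epoxidase, averaged 5.70 ± 0.33 at ZT2, 4.73 ± 0.65 at ZT10 and 5.57 ± 0.31 at ZT18 (SD, range 1.10, adjusted p = 0.0295). Sqle lost this call with the covariates (adjusted p = 0.12) and without ZT2 mouse 1, or ZT10 mouse 2 or 3, or ZT18 mouse 2 or 3 (differences of 0.88 to 1.11, adjusted p = 0.0567 to 0.164). Lss, lanosterol synthase, averaged 2.69 ± 0.13 at ZT2, 1.54 ± 0.63 at ZT10 and 2.39 ± 0.21 at ZT18 (SD, range 1.15, adjusted p = 0.0112), with ZT10 mouse 1 nearest to the other times. It lost its call without ZT10 mouse 2 (0.98, adjusted p = 0.0888) or mouse 3 (0.98, adjusted p = 0.0743).

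Of 32 genes of fatty acid oxidation, 5 varied (3 to 5 with 1 mouse left out), against 11.2% of all genes, and 4 of the 5 were highest at ZT10. The median ZT18 minus ZT10 difference of the list was -0.10, against 0.01 over all genes. Angptl4, an inhibitor of lipoprotein lipase and a PPARA target, was 4.54 and 4.68 at ZT2, 6.59, 6.48 and 5.85 at ZT10, and 5.11, 4.73 and 5.40 at ZT18, every ZT10 liver above all others (1.63 ± 0.32 (SE, adjusted p = 0.00219) for ZT10 minus ZT2). Cpt1a, which passes long-chain fatty acids into mitochondria, was 4.998 and 4.81 at ZT2, 5.77, 6.03 and 5.67 at ZT10, and 5.03, 4.79 and 5.09 at ZT18 (-0.86 ± 0.19 (SE, adjusted p = 0.00417) for ZT18 minus ZT10). Ppara, the nuclear receptor of the pathway, averaged 5.53 ± 0.07 at ZT2, 6.41 ± 0.32 at ZT10 and 5.61 ± 0.12 at ZT18 (SD, range 0.88, adjusted p = 0.00473). Ppara lost this call without ZT10 mouse 1 (0.73, adjusted p = 0.0523). Bdh1, of ketone body formation, averaged 6.21 ± 0.04 at ZT2, 6.77 ± 0.18 at ZT10 and 6.04 ± 0.14 at ZT18 (SD, -0.69 ± 0.16 (SE, adjusted p = 0.00666)). Among 31 genes of fatty acid and triglyceride synthesis, 11 varied (7 to 10 with 1 mouse left out), with both peaks and troughs at ZT10. Lpin1, a phosphatidate phosphatase, peaked at ZT10 at 1.41 and 1.22 at ZT2, 3.11, 3.64 and 3.52 at ZT10, and 1.89, 0.98 and 0.95 at ZT18 (-1.92 ± 0.34 (SE, adjusted p = 0.000531)), whereas Insig2, which retains SREBP in the ER, and Agpat2, an acyltransferase, were lowest there. Insig2 was 6.07 and 5.83 at ZT2, 3.91, 4.11 and 3.11 at ZT10, and 5.56, 5.07 and 5.46 at ZT18 (1.58 ± 0.30 (SE, adjusted p = 0.00111)). Agpat2 averaged 4.92 ± 0.00 at ZT2, 4.26 ± 0.32 at ZT10 and 5.26 ± 0.20 at ZT18 (SD, 0.96 ± 0.15 (SE, adjusted p = 0.000124)). Thrsp, a lipogenic regulator, averaged 7.08 ± 0.49 at ZT2, 8.51 ± 0.51 at ZT10 and 8.79 ± 0.13 at ZT18 (SD, range 1.93, adjusted p = 0.00182). Thrsp lost this call without ZT2 mouse 2 (1.58, adjusted p = 0.0506).

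Of 25 genes of bile acid synthesis and transport, 9 varied (6 to 8 with 1 mouse left out). The share that varied over all genes was 11.2%. Cyp7a1, which opens the classical route of bile acid formation, was 1.50 and 1.80 at ZT2, 2.96, 3.07 and 4.71 at ZT10, and 3.28, 3.63 and 3.81 at ZT18. Both ZT2 livers lay below the other 6 (range 1.95, adjusted p = 0.00299), and the call was lost without ZT2 mouse 1 (1.83, adjusted p = 0.0582). Nr0b2, the repressor SHP that acts on Cyp7a1, had its highest mean at ZT2, at 2.09 and 1.85 at ZT2, -0.44, -0.42 and 0.20 at ZT10, and 0.80, 1.31 and 1.15 at ZT18 (-2.15 ± 0.39 (SE, adjusted p = 0.00113) for ZT10 minus ZT2). The sterol transporters Abcg5 and Abcg8, which form a heterodimer and lie side by side in the genome, both had their highest mean at ZT10. Abcg5 was 4.63 and 3.95 at ZT2, 5.89, 5.77 and 5.52 at ZT10, and 4.46, 3.99 and 4.46 at ZT18 and Abcg8 was -0.25 and -0.97 at ZT2, 0.69, 0.56 and -0.05 at ZT10, and -1.06, -1.63 and -1.34 at ZT18. Their ZT18 minus ZT10 differences were -1.35 ± 0.20 (SE, adjusted p = 8.37e-05) and -1.77 ± 0.26 (SE, adjusted p = 0.00011). The ZT10 minus ZT2 step of Abcg8, 0.96 ± 0.29 (SE, adjusted p = 0.0489), was lost without ZT2 mouse 1 or 2, or ZT10 mouse 1 or 2, or ZT18 mouse 1, 2 or 3 (differences of 0.66 to 1.26, adjusted p = 0.0536 to 0.492), and its normexp range was 1.17. Abcb11, the bile salt export pump, was highest at ZT2 with 7.18 ± 0.11 at ZT2, 6.60 ± 0.18 at ZT10 and 6.65 ± 0.01 at ZT18 (SD, range 0.57, adjusted p = 0.00194). Abcb11 lost this call without ZT2 mouse 1 (0.47, adjusted p = 0.0769).

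Among the 30 glucose and insulin genes measured, 14 varied (11 to 16 with 1 mouse left out, 10 with the covariates). The share that varied over all genes was 11.2%. Pck1, the entry enzyme of gluconeogenesis, was 6.21 and 5.97 at ZT2, 8.30, 8.52 and 6.99 at ZT10, and 6.96, 6.24 and 7.14 at ZT18, with the highest mean at ZT10 and ZT10 mouse 3 within the ZT18 levels (2.07 ± 0.38 (SE, adjusted p = 0.00127) for ZT10 minus ZT2). Pfkfb3, which makes the activator of phosphofructokinase, was 0.80 and -0.04 at ZT2, 2.66, 2.57 and 2.99 at ZT10, and 0.84, 0.42 and 0.86 at ZT18, again with ZT10 above the rest (range 2.42, adjusted p = 0.00176). Ppp1r3c, a subunit that directs phosphatase to glycogen, had the opposite course at 4.21 and 3.82 at ZT2, 2.74, 1.08 and 2.06 at ZT10, and 4.33, 4.74 and 4.45 at ZT18 (2.41 ± 0.40 (SE, adjusted p = 0.000344) for ZT18 minus ZT10). Its relative Ppp1r3g was -2.70 and -2.60 at ZT2, 1.43, 1.55 and -1.35 at ZT10, and -3.03, -4.46 and -4.55 at ZT18, where ZT10 mouse 3 stood apart from the other ZT10 mice. The ZT18 minus ZT10 call of Ppp1r3g (-4.59 ± 1.12 (SE, adjusted p = 0.00937)) was lost without ZT10 mouse 2 (-4.06, adjusted p = 0.052) and with the covariates (adjusted p = 0.103). The normexp range of Ppp1r3g was 2.23.

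Of 28 enzymes of amino acid metabolism and the urea cycle, 11 varied (8 to 12 with 1 mouse left out, 7 with the covariates), against 11.2% of all genes, and 9 of the 11 were highest at ZT18. Asl, argininosuccinate lyase of the urea cycle, was 5.93 and 5.71 at ZT2, 6.29, 6.21 and 6.40 at ZT10, and 7.13, 7.16 and 7.11 at ZT18. The 3 times were in separate bands, ascending through the series (range 1.31, adjusted p = 1.29e-07), although the range was 2.47-fold only. Prodh, proline dehydrogenase, was 6.15 and 5.76 at ZT2, 6.70, 6.61 and 6.83 at ZT10, and 7.02, 6.99 and 7.02 at ZT18 (1.12 ± 0.16 (SE, adjusted p = 0.00048) for ZT18 minus ZT2). Tat, tyrosine aminotransferase, averaged 6.38 ± 0.02 at ZT2, 5.99 ± 0.15 at ZT10 and 6.81 ± 0.04 at ZT18 (SD, 0.77 ± 0.17 (SE, adjusted p = 0.00357)). Mat1a, which makes S-adenosylmethionine, averaged 6.24 ± 0.27 at ZT2, 6.61 ± 0.20 at ZT10 and 7.04 ± 0.16 at ZT18 (SD, range 0.76, adjusted p = 0.00593). Mat1a lost this call without ZT2 mouse 2 (0.57, adjusted p = 0.0601). Sds, serine dehydratase, departed from them with a peak at ZT10 of 4.65 and 4.21 at ZT2, 6.24, 5.84 and 5.76 at ZT10, and 4.69, 4.73 and 4.62 at ZT18 (-1.21 ± 0.23 (SE, adjusted p = 0.00106) for ZT18 minus ZT10).

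Of 24 genes of drug and haem metabolism, 7 varied (6 to 9 with 1 mouse left out) and 3 did with the covariates. The share that varied over all genes was 11.2%. Alas1, the rate-limiting enzyme of haem synthesis, was 6.47 and 6.71 at ZT2, 8.84, 9.33 and 8.97 at ZT10, and 7.16, 7.28 and 7.37 at ZT18, with all ZT10 livers over 1 log2 unit above all others (2.23 ± 0.49 (SE, adjusted p = 0.00528) for ZT10 minus ZT2). The ZT18 minus ZT10 step of Alas1 (-1.40 ± 0.44 (SE, adjusted p = 0.0437)) was lost with the covariates (adjusted p = 0.22) and in each of the 8 fits with 1 mouse left out, without ZT2 mouse 1 or 2, or ZT10 mouse 1, 2 or 3, or ZT18 mouse 1, 2 or 3 (differences of -1.59 to -1.21, adjusted p = 0.0513 to 0.153). Its ZT10 minus ZT2 step was lost without ZT2 mouse 1 (2.06, adjusted p = 0.0763). Cyp2a4, whose probe may also read its near-identical copy Cyp2a5, was 6.68 and 6.32 at ZT2, 8.50, 8.67 and 8.55 at ZT10, and 8.54, 8.34 and 8.46 at ZT18, with both ZT2 livers below the other 6 (1.90 ± 0.20 (SE, adjusted p = 3.15e-06)). Cyp2b10, a target of the receptor CAR, was highest at night at 2.94 and 2.34 at ZT2, 2.22, 1.68 and 2.78 at ZT10, and 4.60, 4.24 and 3.80 at ZT18 (2.28 ± 0.45 (SE, adjusted p = 0.00157)). With the covariates its adjusted p was 0.0713. Sult1d1, a sulfotransferase, averaged 2.48 ± 0.42 at ZT2, 2.52 ± 0.23 at ZT10 and 3.14 ± 0.11 at ZT18 (SD, 0.68 ± 0.15 (SE, adjusted p = 0.00463)), with a covariate adjusted p of 0.111.

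Among 31 acute phase genes, 7 varied (6 or 7 with 1 mouse left out), led by the metallothioneins. The share that varied over all genes was 11.2%. Mt1 was 3.59 and 3.52 at ZT2, 6.02, 6.40 and 5.19 at ZT10, and 3.52, 3.71 and 4.63 at ZT18, with a separate peak at ZT10 (range 2.32, adjusted p = 0.000132). Mt2, its neighbour and close copy, averaged 1.92 ± 0.09 at ZT2, 3.87 ± 0.72 at ZT10 and 2.31 ± 1.01 at ZT18 (SD, range 2.09, adjusted p = 0.00783). Mt2 lost this call without ZT10 mouse 2 (1.72, adjusted p = 0.0732). Il6ra, the receptor of interleukin 6, was 3.61 and 3.14 at ZT2, 4.85, 4.63 and 5.22 at ZT10, and 4.67, 4.34 and 4.73 at ZT18, with both ZT2 livers lowest (range 1.64, adjusted p = 4e-05). Saa4 averaged 4.48 ± 0.13 at ZT2, 4.71 ± 0.03 at ZT10 and 5.40 ± 0.03 at ZT18 (SD, range 1.00, adjusted p = 0.00282). Crp averaged 4.40 ± 0.08 at ZT2, 3.78 ± 0.19 at ZT10 and 4.44 ± 0.05 at ZT18 (SD, range 0.68, adjusted p = 0.00149). Of 23 cell cycle and DNA replication genes 5 varied (3 to 5 with 1 mouse left out), against 11.2% of all genes. Beside Ccne1 and Cdkn1a above, Ccnd1, cyclin D1, peaked at ZT10 at 2.49 and 2.56 at ZT2, 3.52, 3.48 and 3.66 at ZT10, and 1.99, 2.01 and 2.48 at ZT18 (-1.34 ± 0.23 (SE, adjusted p = 0.00038) for ZT18 minus ZT10). Of 27 immediate early and p53 response genes 9 varied (6 to 9). This count too is to be read against 11.2% of all genes. Jun averaged 3.79 ± 0.43 at ZT2, 2.33 ± 0.40 at ZT10 and 2.37 ± 0.19 at ZT18 (SD, range 1.39, adjusted p = 0.0256). Jun lost this call without ZT2 mouse 2, or ZT10 mouse 1 or 2 (differences of 1.05 to 1.30, adjusted p = 0.0517 to 0.343). Gadd45a averaged 0.61 ± 0.43 at ZT2, 1.35 ± 0.54 at ZT10 and -0.11 ± 0.16 at ZT18 (SD, -1.46 ± 0.28 (SE, adjusted p = 0.00112)), lower at ZT18 than at ZT10.

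The remaining lists had few called genes, to be read against 11.2% of all genes. Of 16 iron handling genes 3 varied (1 or 2 with 1 mouse left out), with Aco1, the iron-sensing aconitase IRP1, at -0.23 ± 0.16 at ZT2, -0.73 ± 0.22 at ZT10 and -0.13 ± 0.06 at ZT18 (SD, range 0.64, adjusted p = 0.000295). Of 34 ribosome biogenesis factors 4 varied (1 to 4, and 1 with the covariates), with Rrp9 highest at ZT10 (range 0.78, adjusted p = 0.00396). Of 28 glutathione and NRF2 genes 3 varied, with Gclc, the first enzyme of glutathione synthesis, at 6.18 ± 0.04 at ZT2, 4.9999 ± 0.21 at ZT10 and 5.63 ± 0.11 at ZT18 (SD, range 1.12, adjusted p = 0.000461). Gstt2, a glutathione transferase, averaged 3.17 ± 0.12 at ZT2, 4.73 ± 0.13 at ZT10 and 4.31 ± 0.27 at ZT18 (SD, range 1.29, adjusted p = 0.00187). Of 22 autophagy genes 4 varied (2 to 4), with Gabarapl1, of the autophagosome membrane, lower at ZT18 than at ZT10 by -0.81 ± 0.11 (SE, adjusted p = 6.03e-05). Of 21 genes of growth hormone signalling and male-biased expression 3 varied (3 or 4), with Nat8, an N-acetyltransferase, highest at ZT18 at 5.55 and 5.56 at ZT2, 5.77, 5.67 and 6.07 at ZT10, and 6.53, 6.84 and 6.73 at ZT18 (0.94 ± 0.13 (SE, adjusted p = 4.07e-05) for ZT18 minus ZT10). Of 25 genes of oxidative phosphorylation 0 were called over the 3 times, and 1, Cycs, was called between ZT18 and ZT10 (0.39 ± 0.11 (SE, adjusted p = 0.0261)). It was lost with the covariates (adjusted p = 0.202) and without ZT10 mouse 2, or ZT18 mouse 2 or 3 (differences of 0.31 to 0.37, adjusted p = 0.0836 to 0.131). Each of these lists was given with its count, and none was tested as a list.

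Taken pair by pair, ZT18 and ZT10 differed in 2354 genes, 923 higher (3.99%) and 1431 lower (6.19%) at ZT18, with a median difference of 0.01 over all genes. Without ZT10 mouse 2, whose acinar level stood apart, 1700 were called, 549 higher and 1151 lower. Without ZT10 mouse 1 the count was 1487 (698 higher and 789 lower), and without ZT18 mouse 2 it was 1511. With the covariates it was 954, with 338 higher and 616 lower, of which 908 were among the 2354. ZT10 and ZT2 differed in 1609 genes, 829 higher (3.59%) and 780 lower (3.38%) at ZT10, and in 601 without ZT2 mouse 2 or 840 without ZT2 mouse 1. ZT18 and ZT2, the closest pair, differed in 288 genes, 148 higher (0.64%) and 140 lower (0.606%) at ZT18, and in 102 with the covariates. That count was 67 without ZT2 mouse 1, 101 without ZT2 mouse 2, and 151, 158 and 172 without ZT18 mouse 1, 2 and 3. The 3 pairs share their groups, so their lists are not independent.

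The mice of 12 weeks on the same schedule showed the same order of ZT18 and ZT10 in nearly all of these genes. Of the 2354 genes called between ZT18 and ZT10 at 30 weeks, 2306 (98%) had the same sign at 12 weeks, against 70.4% of all genes tested. The median size of the difference of these genes was 0.61 at 30 weeks. Their median difference at 12 weeks, signed by the direction at 30 weeks, was 0.53. Because the genes were chosen by their call at 30 weeks, these 2 values do not compare the ages. Of the genes with a separate peak at 30 weeks, the highest time was the same at 12 weeks for 41 of 48 at ZT2, 487 of 494 at ZT10 and 41 of 41 at ZT18. The share of all genes with the same highest time at both ages was not counted, so these counts have no base rate. Among the clock genes, Arntl averaged 2.02 at ZT2, -3.73 at ZT10 and 1.71 at ZT18 and Dbp 0.55 at ZT2, 7.11 at ZT10 and 2.47 at ZT18 at 12 weeks. Muscle marker levels at 12 weeks were again highest at ZT18 (0.62, 0.73 and -0.08, against -3.86 to -2.01 at the other times), so the 2 ages are alike in this too.

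**Figure D5:**
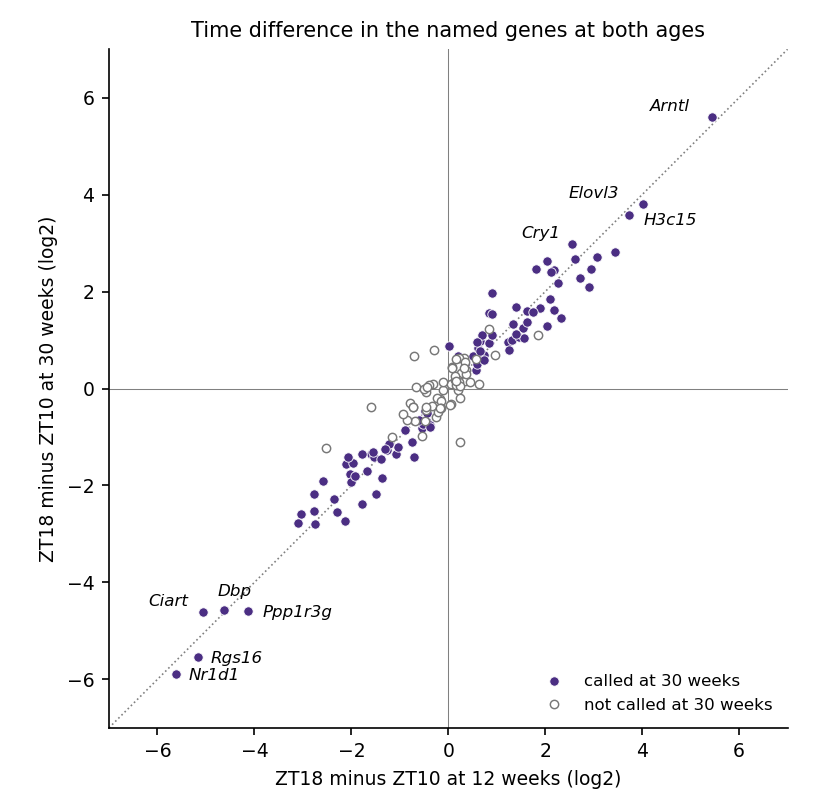
ZT18 minus ZT10 difference (log2) of 159 named genes at 30 weeks (vertical) against 12 weeks (horizontal). Filled points are the 96 genes called at 30 weeks, all 96 of which have the same sign at 12 weeks, and open points the 63 that were not called.

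A direct test of whether the time profile differed with age called 35 genes (0.151%), of which 6 carry a symbol. For 32 of the 35 the highest of the 6 group means was that of the 2 mice at ZT2 and 12 weeks. For the difference between ZT18 and ZT10 alone, limma called 0 genes by age, with 872 at an unadjusted p under 0.05 (1014 for the whole profile).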

How the data were processed

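Liver RNA of 8 steady-schedule mice of 30 weeks was compared between 3 times of day. The authors deposited 1 scanner file per array, whose processed signal is, per the file headers, a background-corrected intensity of Agilent Feature Extraction 11.0.1.1 (9.1 per the submitters' processing notes). They also deposited log2 values that, per the labels, were normalised and had an unnamed batch effect removed. Control spots (3671 of 62976) and outlier spots were left out, and spots of a probe were averaged. Each processed signal was put on the log2 scale and the 75th percentile of its own array was subtracted. A probe was kept where it was well above background throughout 1 or more of the 12 groups (30487 probes), and the brightest probe stood for a gene. RefSeq identifiers in the files were matched to symbols by RefSeq's annotation of GRCm38.p6, which named 26582 of 55681 probes and left 29099 unnamed. For 228 probes a value was missing on some array.

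One limma 3.58.1 model (R 4.3.3, with version 1.17.8 of data.table) held a mean for each of the 12 groups over all 32 arrays. Arrays of the same slide (4 on each of 8 slides) were treated as correlated, at 0.254, with 2.29 prior and 20 residual degrees of freedom. An F test over the 3 times, the 3 pairs and the age by time interaction were run, with Benjamini-Hochberg adjusted p under 0.05 as a call. The code was tested on simulated data. Where no array of a group measured a probe, the fold is a lower bound against the lowest signal of a probe well above background on each array. Precision is limited by how few arrays each time has.

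The naming rule took, at each time, the 10 genes of largest range that peaked there, then 10 higher and 10 lower between ZT18 and ZT10, 5 and 5 in the other pairs and up to 8 for age. It added all clock genes and PAR bZIP factors and up to 6 of each other list. Genes needed a symbol and, outside the lists, a call with the marker covariates too. Results of some genes that the rule took are not reported here. Members and lists were chosen with earlier results of these data known. The files hold no mean signal, so the normexp alternative used the median signal (offset 50). The other alternatives were quantile normalisation, the authors' values (15148 probes), no slide block, a fixed block, the 8 arrays alone, other filters, the mean of probes, the mouse number as a block, the covariates and leaving out each mouse. Mouse numbers name different animals and pair none.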

Additional observations from a re-analysis of the deposited data

Results flagged for a closer look

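The time profile differed between 30 and 12 weeks on the steady schedule, by the interaction of age and time in limma, for 35 genes. In 32 of the 35 the mean of the 2 mice at ZT2 and 12 weeks was the highest of the 6. Genes could enter this test through the single group where they were high. Of the 6 with a symbol, 2 were named by the rule, Sly and Chst9.

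Sly, a gene of the Y chromosome with many near-identical copies, so that its probe is uncertain as to gene, had a range of the age difference of 4.63 (adjusted p = 0.0203). At 30 weeks no array measured it well above background, with -4.78 and -4.25 at ZT2, -5.31, -3.96 and -5.76 at ZT10, and -3.83, -4.37 and -4.07 at ZT18. At 12 weeks it was above background in the 2 ZT2 mice alone (-0.70 and -0.47). The call was lost with the slide as a fixed block (adjusted p = 0.612), with the 16 steady arrays alone (0.0571), and without ZT2 mouse 1 (0.222), ZT2 mouse 2 (0.0525) or ZT18 mouse 1 (0.059) of 30 weeks.

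Chst9, a sulfotransferase, had a range of 3.23 (adjusted p = 0.0151). It was above background in the 2 ZT2 mice of 30 weeks alone, with -2.90 and -2.79, against -5.88 and -6.24 in the ZT2 mice of 12 weeks. Within 30 weeks it was at least 1.93-fold higher at ZT2 than at ZT18, a difference lost with normexp (-0.49, adjusted p = 0.112). The age call was lost with normexp background correction (range 0.72, adjusted p = 1), with a fixed slide block (0.0584), with the steady arrays alone (0.0679), and without ZT2 mouse 1 (0.13) or mouse 2 (0.117).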

How the results depend on the processing

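No named difference between times turned round in sign under any alternative. Most checks were on ranges, which cannot change sign. The time of the highest mean was the same for 94.6% to 99.3% of the genes called over the 3 times. These were 2590 genes, or 1942 with the authors' values. With the other filters on probes it was 100% (of 2590 and 2326 genes), but these change which probes enter and not their signals. Of the checks on named genes, 4817 kept their side of the threshold, 310 lost the call and 44 gained it. Counts are for the 3 times together, ZT18 minus ZT10, ZT10 minus ZT2, ZT18 minus ZT2 and age by time (2590, 2354, 1609, 288 and 35 as reported). With the authors' values, which cover 12649 genes, they were 4134, 3278, 2445, 1363 and 0 (992 genes at an unadjusted p under 0.05). With the slide as a fixed block they were 1514, 1347, 817, 161 and 23, and with the 8 arrays alone (16 for age) 911, 1032, 664, 12 and 33. With muscle and acinar covariates they were 1628, 954, 1481, 102 and 30. Without a slide block 185 genes differed between ZT18 and ZT2, and without a filter on dim probes 160. By age, normexp called 15 genes and the filter for probes above background on all arrays 0 (607 at an unadjusted p under 0.05). Leaving out 1 of the 8 mice of 30 weeks gave 1910 to 2418, 1487 to 2230, 601 to 1559, 67 to 349 and 27 to 38. No mouse of 12 weeks was left out, so the age count was not checked against the ZT2 mice of 12 weeks. With the mouse number as a replicate block the counts were 2629, 2346, 1603, 259 and 32, although same-numbered ZT18 and ZT10 mice did not deviate together (r of -0.226, -0.0379 and -0.238). The cause of these differences was not tested. Signal over background limits Lipg, Npas2, Bhlhe41, Ciart, Per3, Lingo4, Ccnjl and Chst9, which at some times were measured on no array.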
